A study of Mus musculus with 12 samples.

Results

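The hypoxia-inducible factor (HIF) genes and their targets are described here as 10 genes, taken by name from the 52858 genes measured in perfused mouse hearts. They are the 3 oxygen-regulated α subunits (Hif1a, Epas1 and Hif3a), 2 prolyl hydroxylases (Egln1 and Egln3) and 5 transcriptional targets (Adm, Bnip3, Ddit4, Ankrd37 and P4ha1). All 10 were found once each, and all 10 were among the 15240 genes with enough reads to be tested. Across 6 comparisons, 0 of the 10 passed an adjusted p of 0.05 in limma's moderated test, against 0.00% to 3.49% of all genes tested. The nearest was Hif1a, which was higher in each of the 6 hearts after ischemia-reperfusion than in any of the 6 hearts without it, at an adjusted p of 0.0701. Ranges that did not overlap in this comparison, in either direction, were found for 3.41% of all genes tested.

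HIF is a transcription factor made of an α and a β subunit. When oxygen is plentiful, prolyl hydroxylases modify the α subunit, the von Hippel-Lindau protein binds it, and it is destroyed. When oxygen falls, the α subunit is spared, pairs with the β subunit (Arnt) and binds a short response element near genes for glucose uptake, glycolysis, vessel growth, mitochondrial turnover and collagen folding. In the heart the pathway is known for its response to ischemia. The step that oxygen controls is the stability of the protein, which RNA levels do not measure.

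RNA was sequenced from 12 hearts in 4 groups of 3. C57BL/6J mice gave the hearts of the C57-non-IR and C57-IR groups and Slit2-Tg mice those of the Slit2-non-IR and Slit2-IR groups, all perfused through the aorta outside the body (Langendorff perfusion). In the IR groups, flow to the whole heart was stopped after the first 20 min, stayed off for another 20 min and was then restored for 40 min, whereas non-IR hearts kept their flow for all 80 min. The mice were male and 3 to 5 months old. Slit2-Tg mice are heterozygous for a human Slit2 cDNA driven by a CMV promoter, which is not restricted to one cell type, and the line was founded in C57 × CBA eggs, with C57BL/6J mice as the controls. Every heart, controls included, was perfused with buffer, so no group is an unperfused heart. Genotype comes from the strain label, and the letters in the sample titles gave IR or non-IR.

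Reads on genes, recovered from the deposited values, ranged from 16601154 to 24841291 per heart, of which 19.7% to 25.98% were mitochondrial. Summed cardiomyocyte markers (7 of 7 detected) lay between 12552 and 19090 FPKM (fragments scaled to the length of the gene and, here, to a size factor per library). The heart Slit2-IR replicate 1 stood apart in its 8 atrial markers, which summed to 1847 FPKM against 38.1 to 262 in the other 11 hearts, so the IR differences over both genotypes are also given without it. Mouse Slit2 lay at 0.169 to 0.222 FPKM in the 6 non-IR hearts and at 0.0847 to 0.813 in the 6 IR hearts, with both genotypes overlapping. The transgene is a human cDNA that the mouse row may not count, so this does not check the genotype labels.

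The level of the 10 genes, per length of gene, spanned from less than 1 FPKM to over 100. Egln1 was the highest, at a mean of 123 FPKM over the 12 hearts, followed by Epas1 at 85.3, Bnip3 at 50.4, Ddit4 at 36.4, Egln3 at 26.6, P4ha1 at 17.8, Hif1a at 8.37, Adm at 6.83, Ankrd37 at 1.78 and Hif3a at 0.301. Among the α subunits, Epas1, the form best known from endothelial cells, therefore stood above Hif1a in every heart, and Hif3a was represented by 10 to 87 reads per heart. The plot of FPKM by heart shows every value.

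**Figure D1:**
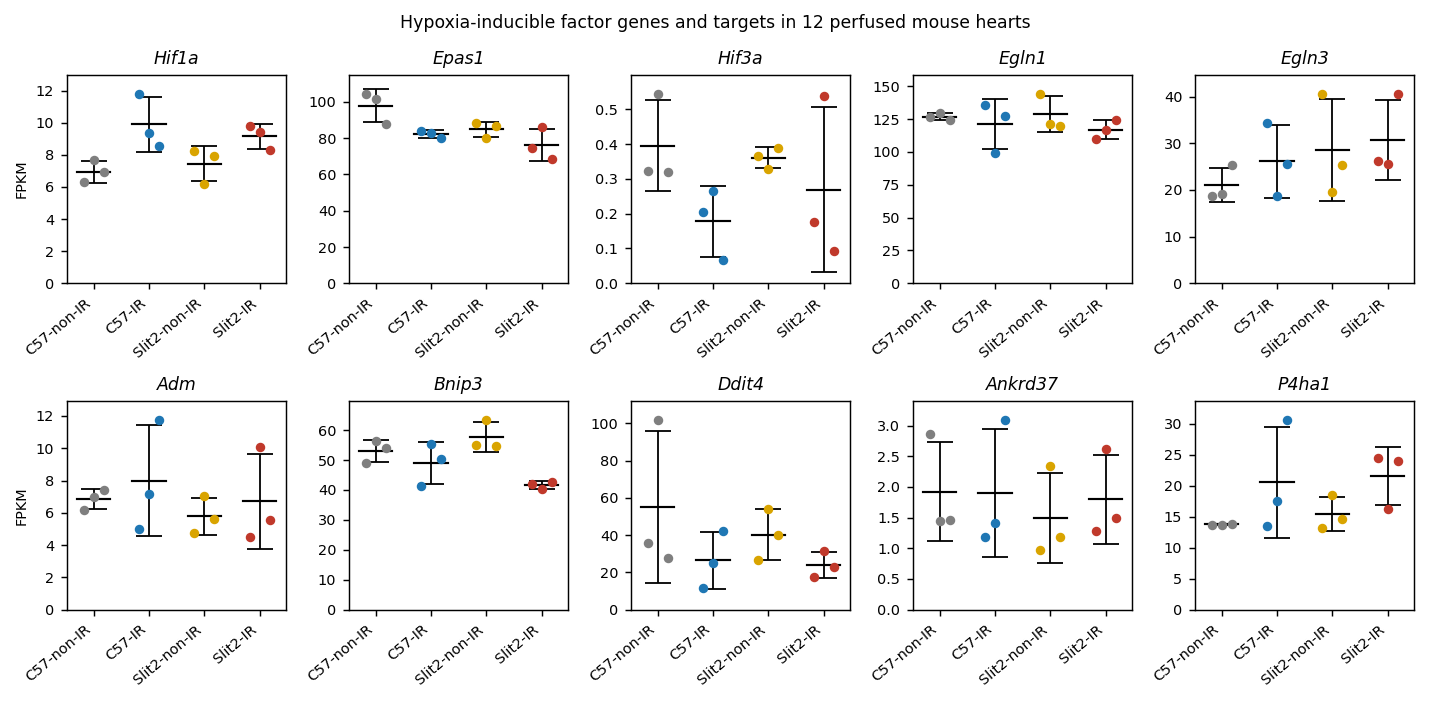
FPKM (vertical axis, from 0) of each of the 10 genes in the 4 groups. Points are hearts (replicates 1 to 3 from left to right), horizontal lines are group means and bars are 1 SD (n = 3). Hif1a is the gene whose 6 IR hearts all lie above its 6 non-IR hearts, and Bnip3 lies lowest in the Slit2-IR group.

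Hif1a (ENSMUSG00000021109, mm10 chromosome 12, 73901375 to 73947530, plus strand) encodes the α subunit of HIF-1, the form found in most cell types. It measured 6.28, 7.67 and 6.90 FPKM in the C57-non-IR hearts and 11.8, 9.34 and 8.53 in the C57-IR hearts. In Slit2-Tg hearts it measured 8.25, 6.199 and 7.93 FPKM without IR and 9.80, 9.39 and 8.30 after IR. The IR hearts lay above the non-IR hearts within each genotype and also across genotypes, where the lowest IR value (8.30) and the highest non-IR value (8.25) nearly touched. Over both genotypes the means were 9.53 ± 1.25 FPKM after IR and 7.20 ± 0.87 without (SD, n = 6 each). The log2 fold change of FPKM + 1 was 0.36 (SE 0.10, 95% interval 0.15 to 0.57), with an unadjusted p of 0.00316 and an adjusted p of 0.0701 in limma. Within genotypes it was 0.45 (limma adjusted p = 0.243) in C57BL/6J hearts and 0.27 (limma adjusted p = 0.501) in Slit2-Tg hearts. Without Slit2-IR replicate 1 the difference over both genotypes was 0.34 (limma adjusted p = 0.150). Over all alternative runs the difference over both genotypes ranged from 0.28 to 0.40, with limma adjusted p from 0.0557 to 0.150. Hif1a therefore did not pass the threshold. The antisense gene Gm15283 overlaps it on the opposite strand, with 16 to 39 reads per heart against at least 631 for Hif1a. In heart tissue, more cells of a type and more RNA per cell cannot be told apart, here or for the other genes.

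Epas1 (ENSMUSG00000024140, chromosome 17, 86753907 to 86833410, plus strand) encodes HIF-2α. It measured 104.6, 101.4 and 87.7 FPKM in C57-non-IR hearts and 84.1, 82.7 and 80.05 in C57-IR hearts, with no overlap. In Slit2-Tg hearts the values were 88.1, 79.9 and 86.5 FPKM without IR and 74.4, 85.9 and 68.4 after IR, and these ranges overlapped. The C57-non-IR group held the 2 highest hearts, but no neighbours in the order of group means differed beyond their spread. The log2 fold change after IR was -0.24 in C57BL/6J hearts (SE 0.10, unadjusted p = 0.0370, limma adjusted p = 0.494) and -0.20 over both genotypes (unadjusted p = 0.0186, limma adjusted p = 0.189). Rescaling each heart to its non-mitochondrial reads took the latter to -0.29 with a limma adjusted p of 0.0382, so the call depends on the scaling. Leaving out Slit2-IR replicate 1 gave -0.19 (limma adjusted p = 0.298). The summed level of 7 endothelial markers was 212 to 260 FPKM in C57-non-IR hearts and 154 to 232 in C57-IR hearts. Its medians there were 218 and 215. In Slit2-Tg hearts it was 163 to 218 without IR and 168 to 243 after IR, with medians of 195 and 207. Its part in the Epas1 difference was not tested.

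Hif3a (ENSMUSG00000004328, chromosome 7, 17031507 to 17062427, minus strand) encodes an α subunit of which some forms oppose the other α subunits. Its values were 0.324, 0.545 and 0.319 FPKM in C57-non-IR hearts and 0.205, 0.264 and 0.0663 in C57-IR hearts, again without overlap. In Slit2-Tg hearts it measured 0.366, 0.330 and 0.389 FPKM without IR and 0.176, 0.539 and 0.0936 after IR, and the heart at 0.539 kept these ranges overlapping. The difference over both genotypes was -0.18 on the log2(FPKM + 1) scale (SE 0.08, unadjusted p = 0.0512, limma adjusted p = 0.319), a scale that understates changes at so low a level. With limma-voom on the recovered reads Hif3a was at -1.07 over both genotypes (adjusted p = 0.193) and -1.38 in C57BL/6J hearts (adjusted p = 0.537), and still did not pass. Without Slit2-IR replicate 1 the difference over both genotypes was -0.16 on the log2(FPKM + 1) scale (unadjusted p = 0.108).

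Egln1 (ENSMUSG00000031987, chromosome 8, 124908587 to 124949324, minus strand) encodes PHD2, the main hydroxylase that marks the α subunits for destruction. It was among the steadiest of the 10, at 126, 129.9 and 124 FPKM in C57-non-IR, 136, 99.5 and 128 in C57-IR, 144, 122 and 120 in Slit2-non-IR and 110.1, 116 and 124 in Slit2-IR hearts. All 4 groups overlapped with their neighbours. The IR difference over both genotypes was -0.11 on the log2 scale, with a 95% interval from -0.30 to 0.08, and -0.085 without Slit2-IR replicate 1.

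Egln3 (ENSMUSG00000035105, chromosome 12, 54178981 to 54203860, minus strand) encodes PHD3, a hydroxylase that is itself a HIF target. It varied more, measuring 18.7, 19.1 and 25.3 FPKM in C57-non-IR hearts, 34.2, 18.6 and 25.5 in C57-IR hearts, 40.7, 19.5 and 25.5 in Slit2-non-IR hearts and 26.1, 25.5 and 40.7 in Slit2-IR hearts. All 4 groups overlapped with their neighbours. The IR difference over both genotypes was 0.20 (95% interval -0.24 to 0.65, limma adjusted p = 0.717), and 0.25 without Slit2-IR replicate 1.

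The promoters of the 5 targets are shown because each holds the core of the HIF response element near its RefSeq start. RefSeq promoter windows (GRCm38.p6) were held for 9 of the 10 genes, all but Epas1. The Hif1a window (chr12:73907617-73907866) lies inside the span of Hif1a given above, because the RefSeq start used differs from the start of that span. The core was searched as ACGTG and GCGTG on both strands in the 250 bases before each start, and CACGTG reads as ACGTG on both strands. At least 1 match lay in 9 of 9 windows and at least 2 in 8, whereas 38.6% of all 32851 windows held at least 1 and 16.7% held at least 2. All windows were not matched to the 9 for base composition, and the 10 genes were taken by name as HIF genes and targets. No enrichment is therefore read from these shares. Such a match describes the letters and not a bound site. Capitals below mark the matches, each sequence runs 5′ to 3′ on the strand of its gene, and bases inside an annotated exon are left out at the 3′ end.
Adm: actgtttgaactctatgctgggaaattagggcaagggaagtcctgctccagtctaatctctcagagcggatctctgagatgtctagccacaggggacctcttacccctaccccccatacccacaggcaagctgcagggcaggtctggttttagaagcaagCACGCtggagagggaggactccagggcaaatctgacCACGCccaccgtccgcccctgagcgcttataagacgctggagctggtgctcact
Bnip3: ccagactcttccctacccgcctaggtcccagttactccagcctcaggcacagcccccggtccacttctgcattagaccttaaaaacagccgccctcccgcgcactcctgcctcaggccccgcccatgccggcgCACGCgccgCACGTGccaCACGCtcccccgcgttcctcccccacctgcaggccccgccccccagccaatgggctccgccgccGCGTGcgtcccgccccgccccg
Ddit4: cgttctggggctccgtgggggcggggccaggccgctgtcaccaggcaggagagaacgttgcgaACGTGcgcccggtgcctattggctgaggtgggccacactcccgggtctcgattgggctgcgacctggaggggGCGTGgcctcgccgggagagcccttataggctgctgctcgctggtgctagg
Ankrd37: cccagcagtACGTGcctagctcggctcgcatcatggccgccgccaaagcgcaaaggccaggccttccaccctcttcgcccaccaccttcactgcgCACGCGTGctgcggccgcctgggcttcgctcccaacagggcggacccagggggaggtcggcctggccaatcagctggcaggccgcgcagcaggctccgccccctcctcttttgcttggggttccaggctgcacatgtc
P4ha1: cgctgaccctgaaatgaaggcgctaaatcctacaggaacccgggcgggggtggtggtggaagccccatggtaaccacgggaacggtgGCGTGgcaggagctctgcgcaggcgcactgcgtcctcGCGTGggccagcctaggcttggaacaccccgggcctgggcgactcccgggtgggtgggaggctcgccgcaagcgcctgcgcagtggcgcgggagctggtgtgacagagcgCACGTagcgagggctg
The Adm stretch is chr7:110627407-110627656 on the plus strand, with 2 matches. The Bnip3 stretch is chr7:138909520-138909756 on the minus strand, with 5 matches, of which 2 form a single CACGTG. The Ddit4 stretch is chr10:59951835-59952020 on the minus strand, with 2 matches. The Ankrd37 stretch is chr8:45999868-46000100 on the minus strand, with 3 matches. It lies inside the span of Ankrd37 given below, because the RefSeq start used differs from the start of that span. The P4ha1 stretch is chr10:59323046-59323295 on the plus strand, with 3 matches. After IR over both genotypes 3 of these 5 had a log2 fold change above 0 and 2 below.

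P4ha1 (ENSMUSG00000019916, chromosome 10, 59323296 to 59373304, plus strand) encodes the catalytic subunit of the prolyl hydroxylase that prepares collagen for folding. It was nearly constant in C57-non-IR hearts, at 13.7, 13.7 and 13.8 FPKM, and ranged over 13.5, 17.5 and 30.7 in C57-IR hearts. Slit2-Tg hearts measured 13.2, 18.5 and 14.6 FPKM without IR and 24.5, 16.3 and 24.0 after IR. The highest values were IR hearts of both genotypes, but 1 C57-IR heart (13.5) lay below all 3 C57-non-IR hearts. The log2 fold change over both genotypes was 0.46 (SE 0.18, 95% interval 0.07 to 0.85, unadjusted p = 0.0246, limma adjusted p = 0.218). Leaving out Slit2-IR replicate 1 made it 0.41 (unadjusted p = 0.0565, limma adjusted p = 0.373).

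Bnip3 (ENSMUSG00000078566, chromosome 7, 138890836 to 138909519, minus strand) encodes a mitochondrial outer membrane protein of mitophagy and cell death. It measured 49.0, 56.2 and 54.0 FPKM in C57-non-IR hearts and 41.2, 55.2 and 50.5 in C57-IR hearts, which overlapped. In Slit2-Tg hearts it measured 55.1, 63.5 and 54.6 FPKM without IR and 42.1, 40.2 and 42.6 after IR, so that the highest Slit2-IR heart (42.6) lay below the lowest Slit2-non-IR heart (54.6). The log2 fold change in Slit2-Tg hearts was -0.46 (SE 0.11, 95% interval -0.71 to -0.21, unadjusted p = 0.00181, limma adjusted p = 0.109). Without Slit2-IR replicate 1 it was -0.47 (limma adjusted p = 0.249), and without C57-IR replicate 1, which enters this fit only through the shared spread, the limma adjusted p was 0.0423. In C57BL/6J hearts the difference was -0.12 (limma adjusted p = 0.907). The test of the difference between genotypes gave -0.34 (95% interval -0.69 to 0.01, unadjusted p = 0.0572, limma adjusted p = 0.9998), so a genotype-dependent response was not established. Over both genotypes Bnip3 was lower after IR by -0.29 on the log2 scale (unadjusted p = 0.0038, limma adjusted p = 0.0783), which rescaling to non-mitochondrial reads took to a limma adjusted p of 0.0422 and leaving out Slit2-IR replicate 1 to 0.137.

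Ddit4 (ENSMUSG00000020108, chromosome 10, 59949669 to 59951834, minus strand) encodes REDD1, an inhibitor of mTORC1 signalling that answers hypoxia, glucocorticoids and other stresses. It had the widest spread of the 10, at 35.7, 102 and 27.7 FPKM in C57-non-IR hearts and 11.6, 25.2 and 42.5 in C57-IR hearts. Slit2-Tg hearts measured 26.5, 54.0 and 40.1 FPKM without IR and 17.4, 31.4 and 23.0 after IR. The group means without IR (55.1 ± 40.8 and 40.2 ± 13.7 FPKM) were above those after IR (26.4 ± 15.5 and 23.9 ± 7.0; SD, n = 3 each), but every pair of ranges overlapped. Over both genotypes the log2 fold change was -0.84 (SE 0.36, unadjusted p = 0.0419, limma adjusted p = 0.290), the largest of the 10 in size on the log2(FPKM + 1) scale. Without Slit2-IR replicate 1 it was -0.74 (unadjusted p = 0.0900, limma adjusted p = 0.461).

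Adm (ENSMUSG00000030790, chromosome 7, 110627661 to 110629820, plus strand) encodes adrenomedullin, a secreted vasodilator peptide. It measured 6.17, 6.98 and 7.42 FPKM in C57-non-IR, 5.03, 7.17 and 11.8 in C57-IR, 4.73, 7.02 and 5.64 in Slit2-non-IR and 4.47, 10.1 and 5.57 in Slit2-IR hearts. The highest and the lowest values were both IR hearts, at 11.8 and 4.47. The IR difference over both genotypes was 0.13 (95% interval -0.32 to 0.57, limma adjusted p = 0.853), and 0.23 without Slit2-IR replicate 1 (limma adjusted p = 0.709).

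Ankrd37 (ENSMUSG00000050914, chromosome 8, 45996902 to 46005707, minus strand) encodes an ankyrin repeat protein known as a HIF-1 target. It measured 2.86, 1.44 and 1.46 FPKM in C57-non-IR, 1.19, 1.42 and 3.09 in C57-IR, 0.971, 2.34 and 1.18 in Slit2-non-IR and 1.28, 2.62 and 1.49 in Slit2-IR hearts, on 31 to 107 reads. Each group had 1 heart well above the other two. The IR difference over both genotypes was 0.07 (95% interval -0.38 to 0.52, limma adjusted p = 0.928), and 0.13 without Slit2-IR replicate 1. Its span overlaps Ufsp2, at a mean of 3.69 FPKM, and Lrp2bp on the opposite strand. The use of strand in counting is not given in the sources used here, so reads of these genes may not be told apart and Ankrd37 is uncertain.

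Counted together, IR in C57BL/6J hearts was called for 0 of the 10 genes, against 0.459% of all genes tested, and in Slit2-Tg hearts for 0, against 0.525%. With the replicate number as a block in the fit of all hearts, 202 genes in place of 80 passed in Slit2-Tg hearts. Still none of the 10 did, Bnip3 being nearest at a limma adjusted p of 0.0542. The pairing check was met in this comparison, but the block was shared with comparisons that did not meet it. Values with the block are therefore given as an alternative only. Without the block, 0 of the 10 were called over both genotypes, against 3.49% of all genes. Of all genes, 356 were higher and 176 lower (277 and 305 after rescaling to non-mitochondrial reads). At an unadjusted p under 0.05, 2 of the 10 (Hif1a and Epas1) were found in C57BL/6J hearts against 8.96% of all genes, 1 (Bnip3) in Slit2-Tg hearts against 11.2%, and 5 (Hif1a, Epas1, Bnip3, Ddit4 and P4ha1) over both genotypes against 15.9%. Without Slit2-IR replicate 1 the latter were 3 (Hif1a, Epas1 and Bnip3) against 14.2%. Ranges of IR and non-IR hearts did not overlap for 3 of the 10 in C57BL/6J hearts (13.8% of all genes), for 2 in Slit2-Tg hearts (16.9%) and for 1 over both genotypes (3.41%). Over both genotypes, 5 of the 10 had a log2 fold change above 0, against 51.3% of all genes, with a median log2 fold change of -0.02 against 0.00 for all genes tested. The median size of the difference regardless of sign was 0.20 for the 10 and 0.08 for all genes. The scale understates changes of low genes, and all genes were not matched to the 10 for level or spread.

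**Figure D2:**
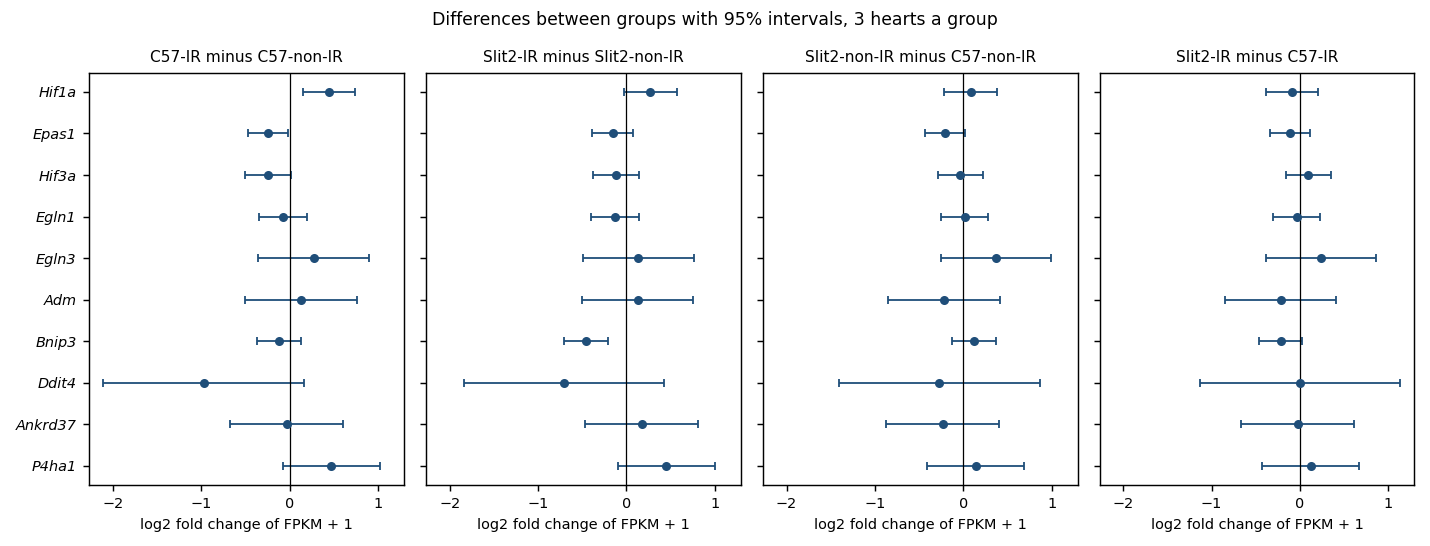
Log2 fold change of FPKM + 1 (horizontal axis) for each of the 10 genes in 4 comparisons, with 95% intervals from the fit of all 12 hearts. Intervals that leave out 0 are those of Hif1a and Epas1 in C57BL/6J hearts and of Bnip3 in Slit2-Tg hearts. None of the 20 intervals between genotypes leaves out 0.

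Slit2-Tg hearts were then compared with C57BL/6J hearts. Without IR, 0 of the 10 passed (0.0394% of all genes did), 0 had an unadjusted p under 0.05 (3.19%) and 0 had separate ranges (9.20%). The nearest was Epas1, at 84.9 ± 4.3 FPKM in Slit2-non-IR and 97.9 ± 9.0 in C57-non-IR hearts (log2 fold change -0.20, 95% interval -0.43 to 0.03, unadjusted p = 0.0767, limma adjusted p = 0.9995). Egln3 had the largest difference, 0.37 (SE 0.28, unadjusted p = 0.218). After IR, 0 passed (0.0459%), 0 had an unadjusted p under 0.05 (3.16%) and 0 had separate ranges (6.47%). Bnip3 was the nearest, at 49.0 ± 7.1 FPKM in the C57-IR group and 41.6 ± 1.2 in the Slit2-IR group (-0.22, 95% interval -0.47 to 0.03, unadjusted p = 0.0770, limma adjusted p = 0.9996). With the replicate block, shared by all groups, the unadjusted p of Bnip3 was 0.0436 (limma adjusted p = 0.9986). Under that alternative 1 of the 10 was under 0.05, against 4.51% of all genes. The pairing check was met in this comparison but not in every comparison that shares the block. The Bnip3 difference without Slit2-IR replicate 1 was -0.23 (unadjusted p = 0.112). The intervals differed in width: for Hif1a they ran from -0.21 to 0.38 without IR and from -0.39 to 0.21 after IR, whereas for Ddit4 they ran from -1.40 to 0.87 and from -1.14 to 1.13, which holds 2-fold differences of Ddit4 in either direction after IR. The interaction of Slit2 and IR was called for 0 of 10 and for 0.00% of all genes (limma-voom on the recovered reads also called 0), and at an unadjusted p under 0.05 for 0 of 10 against 1.86%.

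The genes differed in how much hearts of the same group varied. The within-group SD of log2(FPKM + 1) was 0.74 for Ddit4, 0.41 for Ankrd37, 0.40 for Adm, 0.40 for Egln3 and 0.35 for P4ha1, against a median of 0.15 over all genes tested. Of all genes tested, 91.9% varied less than P4ha1 and 99.1% less than Ddit4. This scale compresses the spread of low genes, and the genes tested were not matched to these for level. Hif1a (0.17), Epas1 (0.11), Egln1 (0.15) and Bnip3 (0.13) lay near the median. Hif3a (0.16) did so only on this scale, which compresses the spread of so low a gene. In FPKM it was at 0.269 ± 0.237 in Slit2-IR hearts (SD, n = 3).

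**Figure D3:**
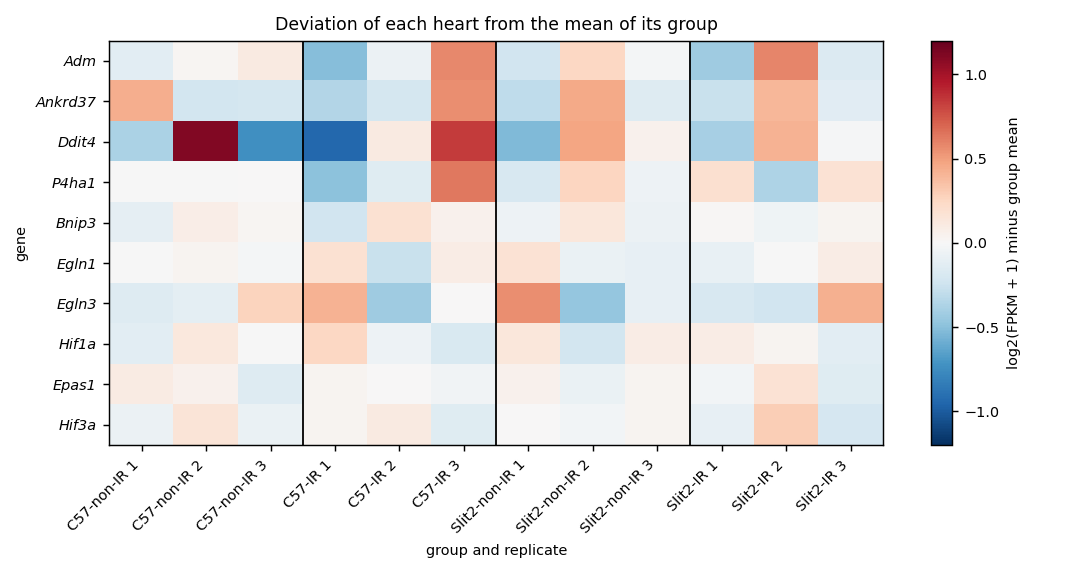
Log2(FPKM + 1) of each gene (rows) in each heart (columns) minus the mean of that heart's group, in colour (red above, blue below the group mean). Black lines divide the 4 groups. Adm, Ankrd37 and Ddit4 are red together in replicate 3 of C57-IR and in replicate 2 of both Slit2-Tg groups and blue together in replicate 1 of those groups.

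Several targets deviated from their group means in the same hearts. In C57-IR replicate 3 and Slit2-non-IR replicate 2, Adm, Ddit4, Ankrd37 and P4ha1 were all the highest of their group, and in Slit2-IR replicate 2 Adm, Ddit4 and Ankrd37 were. All 4 were the lowest of their group in C57-IR replicate 1 and in Slit2-non-IR replicate 1, and in Slit2-IR replicate 1 all but P4ha1 were. The C57-non-IR hearts did not share this pattern, Ankrd37 being highest in replicate 1, Ddit4 in replicate 2 and Adm in replicate 3. The correlation of deviations over the 12 hearts, which share their libraries and group means, was 0.75 for Adm and Ankrd37 and 0.68 for Adm and Ddit4. The other pairs of these 4 targets were lower, from 0.36 (Adm and P4ha1) to 0.48 (Ddit4 and Ankrd37). Hif1a ran the other way, at -0.73 with Ankrd37, -0.70 with P4ha1, -0.54 with Adm and -0.39 with Ddit4. The hydroxylases Egln1 and Egln3 went together at 0.80. How often other pairs of genes reach such values in these hearts was not counted. Replicate 1 also had the highest summed cardiomyocyte markers of its group in all 4 groups and the lowest summed macrophage markers, for example 99.5 FPKM against 197 and 227 in the other two C57-IR hearts. The part of cell make-up in the shared deviations was not tested.

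The rest of the pathway was described with 4 lists of further genes, of which 74 were tested and are reported. Over both genotypes 5 of these 74 passed, all higher after IR, against 2.34% of all genes called higher. Of these, 1 was in the list of HIF subunits and oxygen-sensing genes (1 of 14 tested), 3 in glucose uptake and glycolysis (of 19), 0 among the reported vascular and secreted factors (of 17, with 6 higher and 2 lower at an unadjusted p under 0.05) and 1 in mitochondria, pH, matrix and chromatin (of 24), and 0 of the 74 passed as lower. The median log2 fold changes of these lists were 0.03, 0.08, 0.33 and 0.02, against 0.00 for all genes.

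Bhlhe40, a transcriptional repressor of the clock and hypoxia responses, was the one of these that also passed within each genotype. It measured 12.8, 13.2 and 17.3 FPKM in C57-non-IR and 30.5, 49.3 and 41.4 in C57-IR hearts (log2 fold change 1.41, limma adjusted p = 0.0230). In Slit2-Tg hearts it measured 10.4, 13.3 and 14.3 FPKM without IR and 43.8, 51.6 and 33.1 after IR (1.67, limma adjusted p = 0.00911). The IR hearts were clear of the non-IR hearts in both genotypes. The call in C57BL/6J hearts was lost when any of 5 hearts was left out (C57-non-IR replicates 1, 2 and 3 and C57-IR replicates 2 and 3, limma adjusted p from 0.0572 to 0.136), and that in Slit2-Tg hearts without Slit2-non-IR replicate 1 or Slit2-IR replicates 1 or 2 (0.0507 to 0.0643). Over both genotypes Bhlhe40 rose by 1.54 and passed in every alternative run (largest limma adjusted p = 0.00323).

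Slc16a3, the lactate exporter MCT4, measured 0.751, 0.627 and 0.728 FPKM in C57-non-IR and 1.45, 3.58 and 2.75 in C57-IR hearts. In Slit2-Tg hearts it measured 0.671, 0.726 and 0.557 FPKM without IR and 2.49, 2.69 and 1.66 after IR. It rose over both genotypes by a log2 fold change of 1.01 (limma adjusted p = 0.0035). Within genotypes it did not pass, at 1.03 in C57BL/6J hearts (limma adjusted p = 0.0511) and 0.98 in Slit2-Tg hearts (0.0578). With the replicate block shared by all groups, the latter had a limma adjusted p of 0.0460. Pfkfb3, which makes the activator of phosphofructokinase, rose from 1.89 to 5.18 FPKM in the means over both genotypes (1.04, limma adjusted p = 0.0160). Slc2a1, the basal glucose transporter GLUT1, rose from 5.56 to 8.94 FPKM (0.58, limma adjusted p = 0.0319). The Slc2a1 call was lost in 10 of the 12 fits that leave out a heart, all but those without C57-IR replicate 1 or Slit2-IR replicate 3 (limma adjusted p up to 0.0808). Other glycolytic genes did not pass, with Ldha at 191 FPKM without and 209.8 FPKM after IR (0.14, limma adjusted p = 0.404), Hk2 at 0.19 (0.483), Pfkp at 0.17 (0.526) and Slc2a3 at 0.24 (0.0761).

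Siah2, a ubiquitin ligase that targets the prolyl hydroxylases, rose from 3.07 to 5.82 FPKM (0.74, limma adjusted p = 0.0116). Of the reported vascular genes, which did not pass over both genotypes, Hmox1 was at 1.64 (limma adjusted p = 0.0801), Pgf at 0.71 (0.0825), Stc2 at -0.43 (0.0754) and Cxcl12 at -0.31 (0.111). In Slit2-Tg hearts Pgf, a vessel growth factor, had a limma adjusted p of 0.0205 with the replicate block, in place of 0.257. That block was shared with comparisons that did not meet the pairing check. Of the oxygen-sensing genes, Cited2 was at 0.94 (limma adjusted p = 0.136), Vhl at -0.22 (0.308), Eloc at 0.12 (0.448) and Ep300 at -0.11 (0.664). In the remaining list Loxl2 was at 0.49 (limma adjusted p = 0.133), Sap30 at 0.41 (0.197), Lox at 0.37 (0.201) and Bhlhe41 at 0.37 (0.293). Between genotypes 0 of the 74 passed, with or without IR.

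**Figure D4:**
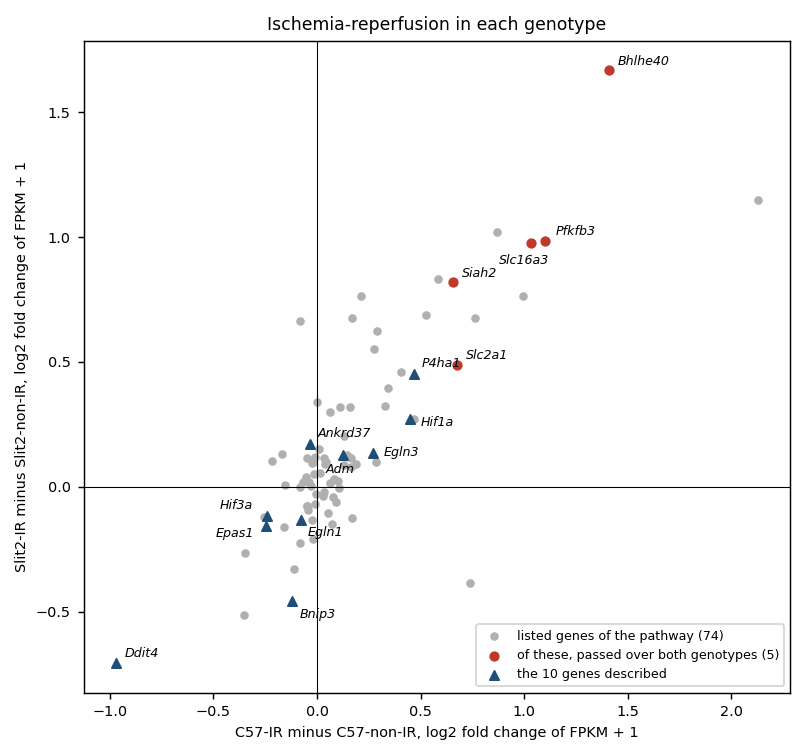
Log2 fold change of FPKM + 1 after IR in C57BL/6J hearts (horizontal axis) and in Slit2-Tg hearts (vertical axis), 1 point a gene. Triangles are the 10 genes described, grey points the 74 listed genes and red points the 5 of these that passed over both genotypes. The red points lie between 0.65 and 1.41 on the horizontal axis, and 9 of the 10 triangles lie between -0.5 and 0.5 on both axes, Ddit4 being lower.

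The genes whose level over the 12 hearts ran most like that of each member were picked by Pearson's r among 11192 genes of at least 1 FPKM, as a description of these libraries. For Hif1a they were Usp22 (r = 0.92) and Nupl1 (0.90), for Epas1 Agap2 (0.89), Mtmr10 (0.89) and Zfp119a (0.88), and for Hif3a Hltf (0.89), Paxip1 (0.87) and Lifr (0.85). For Egln1 they were Fastkd1 (0.94), Thyn1 (0.92) and Gm26862 (0.92), and for Egln3 Rtn4ip1 (0.88), Riox2 (0.87) and Mettl16 (0.87). Ddit4 ran most closely with Tsc22d3 (0.93), a gene known for its induction by glucocorticoids, then Ankrd13a (0.91) and Cebpg (0.90). Bnip3 ran with 1110034G24Rik (0.89), Foxo4 (0.88) and Etfbkmt (0.88), and P4ha1 with Tmem33 (0.92), Cdc5l (0.91) and Chordc1 (0.89). Adm ran with Klf7 (0.93), Rpl31-ps8 (0.90) and Rpl21-ps15 (0.89), of which the last are ribosomal pseudogenes that can share reads with their parent genes, and Ankrd37 with Dennd5b (0.91), Olfr1033 (0.88) and Sys1 (0.85). None of those named was another of the 10 genes.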

How the data were processed

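The authors aligned paired-end reads with HISAT2 to mm10, per the submitters' processing notes, and deposited FPKM values per gene and library for 4 groups of 3 hearts. The counting tool, its use of strand and the annotation release are not given in the sources used here. Libraries were made with the NEBNext Ultra RNA kit from total RNA of separate hearts.

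FPKM times gene length came out as whole multiples of 1 step per library (100% of 249546 values within 0.1 of a whole read), which gave the reads behind each value. The step ran inversely to a size factor, the median over genes of a library's reads relative to the average library (relative spread of their product 3.5e-11). The deposited values thus carry that scaling and not one to total reads. Rescaling to non-mitochondrial reads replaced it with totals. This moved the median IR log2 fold change of all genes over both genotypes by -0.058. Hearts held 16601154 to 24841291 reads on genes. FPKM is not a count, so limma 3.58.1 (R 4.3.3) was fitted with a variance trend to log2(FPKM + 1) over all 12 hearts, without covariates, for 15240 genes with the equivalent of 10 reads in at least 3 hearts and 15 reads in total. Benjamini-Hochberg adjustment ran over all 15240, with a threshold of 0.05. Fits were also run on simulated reads, drawn with the same variability for every gene and independently for each heart. The real genes differed in spread and some hearts deviated together, so no error rate for these data is taken from that run. Fold changes on this scale understate changes of low genes. The 10 genes, the pathway lists and the markers were chosen with earlier results of these data known. All 10 genes are named. Listed genes are named if they passed over both genotypes or in a pairwise comparison, with up to 4 more per list by smallest unadjusted p over both genotypes. For likeness, up to 3 genes of mean FPKM of at least 1 are named per member. Some genes that these rules would name are not reported here, and counts over the pathway lists leave them out.

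Same-numbered hearts deviated together in the Slit2-Tg IR comparison (correlations 0.291, 0.294 and 0.143) and in the IR genotype comparison (0.285, 0.154 and 0.362), above the 0.1 required, but not in all pairs of the other comparisons (lowest 0.0833 and 0.0377). The replicate block was fitted to all hearts at once, so the comparisons that did not meet the check share its terms and its residual spread. No replicate pair agreed within sampling noise. Alternatives were a pseudocount of 0.1, other filters, a fit of the 6 hearts compared, the replicate block, limma-voom on recovered reads, rescaling to non-mitochondrial reads, and leaving out each heart. Python 3.11.15, pandas 2.3.3, numpy 2.4.6 and matplotlib 3.10.9 were used.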

Additional observations from a re-analysis of the deposited data

How the results depend on the processing

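With 3 hearts a group, the 10 genes' intervals limit what could be seen, and Ankrd37 and Hif3a rest on few reads. The 60 log2 fold changes of the 10 genes kept direction and side of the threshold in 1066 of 1120 values over 19 alternatives. Calls were gained over both genotypes for Bnip3 with the replicate block (1 gene called, -0.29, limma adjusted p = 0.0400) and for Bnip3 and Epas1 with rescaling to non-mitochondrial reads (2 genes called, -0.38 and -0.29), and in Slit2-Tg hearts for Bnip3 without C57-IR replicate 1 (0 to 1 genes called). Pseudocount 0.1 reversed Ddit4 for Slit2 after IR (0.0043 from -0.0021) and Adm for the interaction (0.0038 from -0.0003). Leaving out 1 heart changed the sign of 26 fold changes, none of them called, given here as lowest and highest values. Reversals for IR in C57BL/6J hearts were those of Egln1 (-0.17 to 0.055), Adm (-0.16 to 0.38), Ankrd37 (-0.31 to 0.18). Reversals for IR in Slit2-Tg hearts were those of Egln3 (-0.096 to 0.42), Adm (-0.17 to 0.34), Ankrd37 (-0.029 to 0.40). Reversals for IR over both genotypes were those of Adm (-0.0196 to 0.25), Ankrd37 (-0.0695 to 0.18). Reversals for Slit2 without IR were those of Hif3a (-0.071 to 0.043), Egln1 (-0.071 to 0.063), Ddit4 (-0.64 to 0.29). Reversals for Slit2 after IR were those of Hif1a (-0.18 to 0.031), Hif3a (-0.052 to 0.19), Egln1 (-0.17 to 0.051), Adm (-0.51 to 0.068), Ddit4 (-0.47 to 0.42), Ankrd37 (-0.23 to 0.25), P4ha1 (-0.12 to 0.44). Reversals for the interaction were those of Epas1 (-0.0017 to 0.16), Hif3a (-0.019 to 0.23), Egln1 (-0.19 to 0.036), Egln3 (-0.37 to 0.15), Adm (-0.29 to 0.29), Ddit4 (-0.29 to 0.69), Ankrd37 (-0.012 to 0.48), P4ha1 (-0.26 to 0.30).

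Counts of all genes called moved more. IR in C57BL/6J hearts called 70 genes, 7 without the filter, 9 in the fit of 6 hearts, 174 with the replicate block, 32 with limma-voom, 40 with rescaling and 3 (without C57-non-IR replicate 2, among others) to 254 (without C57-IR replicate 1) with 1 heart left out. IR in Slit2-Tg hearts called 80, 19 without the filter, 202 with the replicate block, 121 with limma-voom, 50 with rescaling and 4 (without Slit2-IR replicate 2) to 180 (without C57-IR replicate 1) with 1 heart left out. IR over both genotypes called 532, 299 without the filter, 773 with the replicate block, 582 with rescaling and 329 to 713 with 1 heart left out. Slit2 without IR called 6, 10 with pseudocount 0.1, 11 without the filter, 3 with the stricter filter, 2 with the replicate block and 1 to 14 with 1 heart left out. Slit2 after IR called 7, 3 with the stricter filter, 4 in the fit of 6 hearts and 4 to 12 with 1 heart left out. The interaction called 0, 4 without the filter and 0 to 1 with 1 heart left out. Of the listed genes, the calls over both genotypes for Slc2a1 (limma adjusted p = 0.0778) and Pfkfb3 (0.0515) were lost without the filter, and that for Slc2a1 (0.0512) with rescaling. The Bhlhe40 call in C57BL/6J hearts was lost without the filter (0.0749) and in the fit of 6 hearts (0.0987). The Slc16a3 call was gained in C57BL/6J hearts under 5 alternatives (pseudocount 0.1, the stricter filter, the replicate block and 2 hearts left out in turn) and in Slit2-Tg hearts under 8. With the replicate block, the unadjusted p of Bnip3 for the interaction was 0.0309, so that 1 of the 10 genes was under 0.05 against 2.65% of all genes. Hearts of the same number did not deviate together in every comparison that the interaction or the difference over both genotypes draws on. The cause was not tested. The block changed no other call of the 10 genes at the adjusted threshold.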
